A study of Mus musculus with 18 samples.

Results

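The genes described here write, read and remove cytosine methylation: the methyltransferases Dnmt1, Dnmt3a and Dnmt3b, the DNMT1 cofactor Uhrf1, the oxidases Tet1, Tet2 and Tet3, the glycosylase Tdg, and the isocitrate dehydrogenases Idh1 and Idh2. They were taken by name, as the probe sets of a mouse whole-transcript array that map to 1 gene symbol. Of the 10 genes, 9 had such a probe set, exactly 1 each, among 22180 genes measured in all. Tdg was represented by 2 probe sets that it shares with its pseudogenes, so no value is given for it. All 9 measured genes lay above the 40th percentile of their array on at least 3 arrays and were among the 16337 genes tested.

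DNMT1 copies methylation onto the new strand behind the replication fork, and UHRF1 brings it there by binding hemimethylated CpG sites. DNMT3A and DNMT3B set new methylation. TET enzymes oxidise 5-methylcytosine in a reaction that consumes 2-oxoglutarate, TDG excises the oxidised bases, and IDH1 in the cytosol and IDH2 in mitochondria make 2-oxoglutarate from isocitrate. In human acute myeloid leukemia (AML), DNMT3A, TET2, IDH1 and IDH2 are recurrently mutated, and the mutant IDH proteins make a metabolite that inhibits TET enzymes. The arrays measured RNA. DNA methylation was not measured.

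The study asked how leukemia cells and normal blood progenitors respond to reprogramming factors and to a chemical reprogramming mix. The leukemia cells were GFP-positive AML cells driven by the MLL-AF9 fusion and sorted from leukemic mice. The normal cells were LSK cells, the lineage-negative marrow fraction with Sca1 and Kit on its surface that is rich in blood stem cells. They came from mice in which doxycycline (Dox) switches on transgenes for c-Myc, Klf4, Sox2 and Oct4 (Pou5f1), and per the labels' protocols the leukemia cells came from such mice too. Each cell type was cultured with Dox for 24 h, with a mix of 4 compounds for 24 h, or kept as a control without either. The mix held VPA, known to block histone deacetylases, CHIR, known to block GSK3, 616452, which acts on a receptor of TGF-beta, and TCP, which acts on the demethylase LSD1. The 6 groups are called AML Dox, AML compound, AML control, LSK Dox, LSK compound and LSK control. Each has 3 arrays that the labels call biological repeats. Whether they came from separate mice or cultures is not said, and the p-values cover the spread of these arrays alone, which may be technical. The sources used here do not give strain, age, doses, the promoter that drives the transgenes or the time of the controls.

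Replicate 1 of LSK compound correlated with the other arrays at 0.638 to 0.672 over all probe sets and was left out. The other 17 arrays correlated at 0.979 to 0.989 within groups and 0.904 to 0.979 across groups. Klf4 was higher with Dox by 5.87 ± 0.11 (log2 difference ± SE) in AML cells and by 4.38 ± 0.11 in LSK cells. Sox2 and Pou5f1 were higher by 1.31 and 0.67 in AML Dox cells and missed the threshold in LSK Dox cells, at 0.30 and 0.15. Myc fell by 4.10 in AML Dox cells and fell by 0.60 in LSK Dox cells (adjusted p = 0.00463). Whether these probe sets read transgene RNA was not tested. Of 7 tested stem and progenitor markers, 4 were called lower in AML Dox against AML control cells (Cd34 at -5.23, Kit at -2.78, Gata2 at -1.46 and Flt3 at -0.47) and 3 higher (Mecom at 0.61, Procr at 0.45 and Hlf at 0.42). Over all genes tested, 25.6% were called lower and 23.0% higher in that comparison. Of 9 tested genes of the MLL-AF9 program, 7 were called higher and 1 lower in AML control against LSK control cells. Over all genes, 15.4% were called higher and 14.2% lower there. Hoxa9, a gene of that program, lay between 7.71 and 7.89 in AML control cells, against 5.35 to 5.73 in LSK control cells. All 9 were called higher in AML Dox against AML control cells (median 1.20). On the LSK compound arrays, Y-linked Eif2s3y stood at 5.20 to 5.47 and Xist at 7.32 to 7.35, while on the 6 LSK Dox and LSK control arrays Eif2s3y stood at 1.50 to 2.04 and Xist at 9.28 to 9.77. The LSK compound arrays thus read both Xist and Y-linked RNA. The sex make-up of the cells, as these genes show it, therefore differed along with the compound in LSK cells. Sex make-up and compound cannot be told apart there. On the 9 AML arrays Xist stood at 2.34 to 3.01 and Eif2s3y at 1.95 to 2.64, so Xist also separated AML from LSK arrays in each comparison between the cell types. Neither Xist nor Eif2s3y was high on the AML arrays, so they do not give the sex of the AML cells. Among the AML arrays, Y-linked levels were highest with the compounds, though near the 40th percentile of all probe sets (2.32 to 2.41). Eif2s3y stood at 2.34 to 2.64 there, against 1.95 to 2.13 in AML control and 2.01 to 2.29 in AML Dox cells. Kdm5d (2.46 to 2.67) and Uty (2.21 to 2.53) also lay above all AML control and AML Dox arrays. The part of this difference in the AML compound results was not tested.

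Levels below are RMA values on the log2 scale, and differences are log2 differences from 1 limma fit over the 17 arrays, with Benjamini-Hochberg adjustment over the 16337 genes. A gene is called where its adjusted p is under 0.05. In bulk RNA, fewer cells of a type and less RNA per cell cannot be told apart. In AML Dox against AML control cells, 4 of the 9 genes were called higher and 4 lower, in a comparison that called 48.6% of all genes tested (23.0% higher and 25.6% lower). In AML compound against AML control cells, 1 was called higher and 4 lower, where 32.0% of all genes were called (12.8% higher and 19.2% lower). LSK Dox against LSK control cells had 2 higher and 5 lower, with 19.1% of all genes called (9.21% higher and 9.93% lower). LSK compound against LSK control cells had 1 higher and 6 lower, with 34.2% of all genes called (14.2% higher and 20.0% lower). The median difference of the 9 genes was 0.10, 0.06, -0.40 and -0.49 in those 4 comparisons, and that of all genes -0.01, -0.03, -0.05 and -0.05. Dnmt1 and Dnmt3b were called lower, and Tet2 higher, in all 4.

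**Figure D1:**
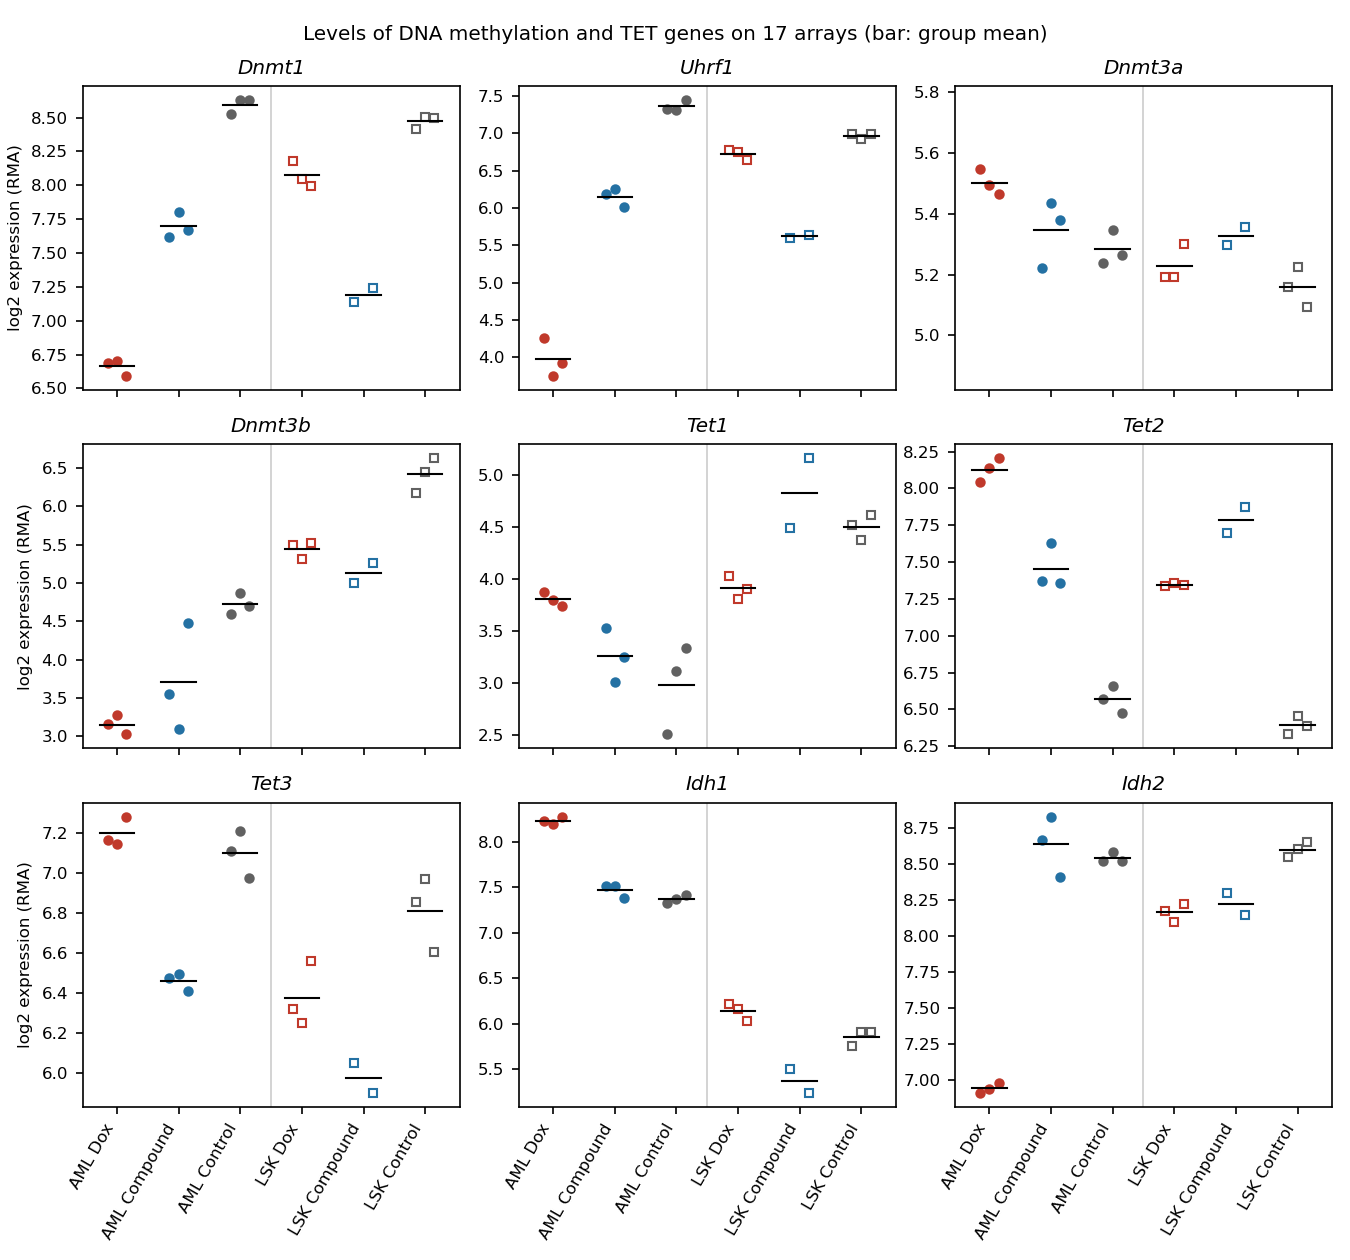
Log2 RMA level (vertical axis, a separate range for each gene) of the 9 genes on each of the 17 arrays, by group, with a bar at the group mean; filled circles are AML cells and open squares LSK cells. Uhrf1 in AML Dox cells lies between 3.75 and 4.26, below every other array, and Tet2 is lowest on the control arrays of both cell types.

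RNA of the maintenance genes Dnmt1 and Uhrf1 fell with both treatments in AML cells, and further with Dox than with the compounds. Dnmt1 stood at 6.69, 6.70 and 6.59 on the AML Dox arrays and at 7.62, 7.80 and 7.67 on the AML compound arrays, against 8.53, 8.63 and 8.63 on the AML control arrays. The 3 groups did not overlap. The difference from control was -1.94 ± 0.083 with Dox (3.82-fold lower, adjusted p = 2.56e-12) and -0.90 ± 0.083 with the compounds (1.86-fold lower, adjusted p = 3.01e-07). In LSK cells, Dnmt1 was at 8.18, 8.05 and 7.99 with Dox and at 7.14 and 7.24 with the compounds, against 8.42, 8.51 and 8.50 in control. Both treated LSK groups lay below the control arrays, and the compound arrays lay well below the Dox arrays. The LSK differences were -0.40 ± 0.083 for Dox (adjusted p = 0.00223) and -1.29 ± 0.093 for the compounds (adjusted p = 6.84e-09).

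Uhrf1 had the widest span of the 9 genes over the 6 group means, 3.38 log2 units. It stood at 4.26, 3.75 and 3.93 on the AML Dox arrays and at 6.19, 6.26 and 6.01 on the AML compound arrays, against 7.32, 7.31 and 7.45 on the AML control arrays. With Dox it was lower by 10.4-fold (log2 difference -3.38 ± 0.11, adjusted p = 9.57e-14), and with the compounds by 2.31-fold (-1.21 ± 0.11, adjusted p = 2.83e-07). In LSK cells it was at 6.77, 6.76 and 6.64 with Dox and at 5.60 and 5.64 with the compounds, against 6.98, 6.93 and 6.99 in control. The compound difference was -1.34 ± 0.12 (adjusted p = 1.62e-07). The Dox arrays of LSK cells also lay below their controls, but the difference of -0.24 (95% confidence interval -0.48 to -0.0085) did not pass adjustment (adjusted p = 0.151). From low to high, the 6 groups ran in 1 order for Dnmt1 and Uhrf1, with no overlap between neighbours: AML Dox, LSK compound, AML compound, LSK Dox, LSK control, AML control.

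The promoters of Dnmt1, Uhrf1 and Tet2 are shown because the first 2 moved together across the groups and the third moved the other way. The sequences are from RefSeq on build GRCm38.p6 and run 5′ to 3′ on the gene's strand, from 250 bases before the annotated start to 50 after it. RefSeq gives 3 starts for Dnmt1 and 2 for Uhrf1, and of each the window with the most CpG sites is printed. In Dnmt1 (chr9:20952574-20952873, minus strand) and Uhrf1 (chr17:56304063-56304362, plus strand), capitals mark matches to an E2F motif, the site of the factors that drive S phase genes. It was searched as TTTGGCGC, TTTGCCGC, TTTCGCGC and TTTCCCGC on both strands. In Tet2 (chr3:133544341-133544640, minus strand), capitals mark CpG sites.
Dnmt1: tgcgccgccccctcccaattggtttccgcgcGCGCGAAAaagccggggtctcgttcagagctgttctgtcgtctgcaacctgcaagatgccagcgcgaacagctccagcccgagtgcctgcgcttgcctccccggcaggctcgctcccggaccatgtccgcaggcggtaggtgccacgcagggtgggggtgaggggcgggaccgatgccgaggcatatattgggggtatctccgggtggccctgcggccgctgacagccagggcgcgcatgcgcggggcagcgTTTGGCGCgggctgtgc
Uhrf1: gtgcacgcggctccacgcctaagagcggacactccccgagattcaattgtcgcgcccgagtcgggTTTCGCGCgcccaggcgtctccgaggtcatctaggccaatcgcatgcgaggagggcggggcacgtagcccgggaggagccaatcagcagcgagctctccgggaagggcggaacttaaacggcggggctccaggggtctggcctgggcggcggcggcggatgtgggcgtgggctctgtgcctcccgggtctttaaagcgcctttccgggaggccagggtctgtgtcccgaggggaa
Tet2: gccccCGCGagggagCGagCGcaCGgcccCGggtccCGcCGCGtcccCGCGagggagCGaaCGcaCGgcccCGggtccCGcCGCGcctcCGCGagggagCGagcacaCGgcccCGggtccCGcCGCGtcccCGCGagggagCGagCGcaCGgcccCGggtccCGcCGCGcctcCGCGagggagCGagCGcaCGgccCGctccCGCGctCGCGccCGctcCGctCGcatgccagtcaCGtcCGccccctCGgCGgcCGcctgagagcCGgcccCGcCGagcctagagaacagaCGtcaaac
The printed Dnmt1 window holds 2 E2F matches, TTTCGCGC on the opposite strand at position -219 and TTTGGCGC at position 34, and the printed Uhrf1 window holds 1, TTTCGCGC at position -185, where position 1 is the start and a match is placed by its leftmost base in the window. Both printed windows belong to the last start along the gene. They lie wholly downstream of the earlier starts, whose windows hold no E2F match. An E2F match was present in 2.26% of all 32851 mouse promoter windows of this length (in any window of 2.6% of genes), and in no window of the other 8 genes, Tdg included. The motif holds a CpG and the printed windows were picked for their CpG sites, so the share over all windows is not a like background. The Tet2 window holds 57 CpG sites and the printed windows of Dnmt1 and Uhrf1 hold 33 each, where the median over all windows was 7. The E-box CACGTG was found in 1 of the 3 Dnmt3a windows and in the Tdg window (7.15% of all windows), and CCAAT in windows of Dnmt1, Uhrf1, Tet3, Tdg, Idh1 and Idh2 (37.4% of all windows), where 2 CCAAT matches on opposite strands can overlap, as in the printed Dnmt1 window. A match describes these letters and is not evidence of binding.

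Genes of S phase fell beside Dnmt1 and Uhrf1. Of 23 tested genes of DNA replication and cell division, 23 were called lower in AML Dox cells (median difference -2.35), 20 in AML compound cells (-0.72), 9 in LSK Dox cells (-0.27) and 22 in LSK compound cells (-1.04), and none was called higher in any of these 4 comparisons. All genes tested had medians between -0.05 and -0.01, and 25.6%, 19.2%, 9.93% and 20.0% of them were called lower in the 4 comparisons. Mcm5, a subunit of the replicative helicase, fell by 3.35 in AML Dox cells and fell by 1.05 in AML compound cells. It was also the gene most like Uhrf1 over the 17 arrays (Pearson r = 0.992), and Cdc6, which loads that helicase, fell by 4.32 in AML Dox cells. The part of cell division in the Dnmt1 and Uhrf1 results was not tested.

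The de novo enzymes behaved unlike each other. Dnmt3b, the de novo enzyme best known from early embryos, stood at 3.15, 3.28 and 3.02 on the AML Dox arrays and at 3.55, 3.10 and 4.47 on the AML compound arrays, against 4.59, 4.86 and 4.70 on the AML control arrays. It was lower than control by 2.97-fold with Dox (-1.57 ± 0.23, adjusted p = 1.77e-05) and by 2.02-fold with the compounds (-1.01 ± 0.23, adjusted p = 0.00266), and replicate 3 of AML compound lay just below the controls while the other 2 lay within or near the Dox range. The LSK arrays read 5.50, 5.31 and 5.53 with Dox and 5.0 and 5.26 with the compounds, against 6.18, 6.45 and 6.63 in control. Neither treated LSK group reached the control arrays. The differences were -0.98 ± 0.23 (adjusted p = 0.00664) for Dox and -1.29 ± 0.26 (adjusted p = 8.14e-04) for the compounds. All 9 AML arrays lay below all 8 LSK arrays for this gene, treated or not.

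Dnmt3a, which is needed for blood stem cells to differentiate and is the de novo enzyme most often mutated in human AML, varied least of the 9 genes, by 0.34 log2 units over the 6 group means. The levels were 5.55, 5.50 and 5.46 in AML Dox and 5.22, 5.44 and 5.38 in AML compound cells, against 5.24, 5.35 and 5.26 in AML control cells. The AML Dox difference was 0.22 ± 0.081 (1.17-fold, adjusted p = 0.0329), and this call was lost without AML control replicate 1 or 3 or AML Dox replicate 1 or 2 (adjusted p = 0.101, 0.0846, 0.0981 and 0.0638), with each array centred on its median (0.14, adjusted p = 0.206) and with eBayes trend and robust (adjusted p = 0.0727). LSK arrays lay between 5.19 and 5.30 with Dox and between 5.30 and 5.36 with the compounds, against 5.09 to 5.22 in control. No other treatment difference of Dnmt3a was called: the intervals were -0.11 to 0.24 for AML compound, -0.10 to 0.24 for LSK Dox and -0.02 to 0.36 for LSK compound.

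The TET genes moved in 3 different ways. Tet2, which restrains self-renewal of blood stem cells, stood at 8.04, 8.14 and 8.20 on the AML Dox arrays and at 7.37, 7.63 and 7.36 on the AML compound arrays, against 6.57, 6.66 and 6.48 on the AML control arrays. Its difference from control was 1.56 ± 0.093 with Dox (2.95-fold higher, adjusted p = 1.64e-10) and 0.88 ± 0.093 with the compounds (1.85-fold higher, adjusted p = 1.29e-06). In LSK cells Tet2 was at 7.34, 7.36 and 7.34 with Dox and at 7.69 and 7.88 with the compounds, against 6.33, 6.46 and 6.39 in control. Every treated array of either cell type lay above every control array. The LSK differences were 0.95 ± 0.093 for Dox (1.94-fold, adjusted p = 9.42e-07) and 1.39 ± 0.10 for the compounds (2.63-fold, adjusted p = 1.02e-08). LSK compound replicate 1, the array left out, read 3.84 for Tet2, and with it the difference was 0.08 (adjusted p = 0.938).

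Tet3, the TET enzyme that oxidises the paternal genome in the zygote, fell in 3 of the 4 treated groups. It stood at 7.16, 7.14 and 7.28 in AML Dox cells and at 6.47, 6.49 and 6.41 in AML compound cells, against 7.11, 7.21 and 6.97 in AML control cells. The AML Dox arrays overlapped the controls (0.10, 95% confidence interval -0.13 to 0.33, adjusted p = 0.508), and the AML compound arrays lay below them (-0.64 ± 0.11, adjusted p = 1.93e-04). The LSK levels were 6.32, 6.25 and 6.56 with Dox and 6.05 and 5.90 with the compounds, against 6.85, 6.97 and 6.60 in control. The compound difference was -0.83 ± 0.12 (1.78-fold lower, adjusted p = 3.08e-05), and the Dox difference -0.43 ± 0.11 (adjusted p = 0.00887) missed the threshold without LSK control replicate 2 (-0.35, adjusted p = 0.0517).

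Tet1 is the TET enzyme best known from embryonic stem cells. It stood at 3.88, 3.80 and 3.74 in AML Dox cells and at 3.53, 3.01 and 3.25 in AML compound cells, against 2.50, 3.11 and 3.33 in AML control cells, where the lowest array was near the 40th percentile of all probe sets (2.32 to 2.41 across arrays). The AML Dox arrays lay above the controls (0.82 ± 0.19, 1.77-fold higher, adjusted p = 0.00156). The AML compound arrays overlapped them (0.28, 95% confidence interval -0.13 to 0.69). In LSK cells it was at 4.03, 3.81 and 3.91 with Dox and at 4.49 and 5.17 with the compounds, against 4.52, 4.38 and 4.62 in control. With Dox it was lower in LSK cells (-0.59 ± 0.19, adjusted p = 0.0411), a call that was lost without any 1 of the 6 LSK Dox and LSK control arrays (adjusted p = 0.0556 to 0.127). The LSK compound arrays overlapped the controls (0.32, 95% confidence interval -0.13 to 0.78).

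The isocitrate dehydrogenases moved in opposite directions in AML Dox cells. Idh1 stood at 8.23, 8.19 and 8.28 in AML Dox cells and at 7.51, 7.51 and 7.38 in AML compound cells, against 7.33, 7.37 and 7.41 in AML control cells. It was higher with Dox by 1.82-fold (0.86 ± 0.089, adjusted p = 2.39e-07), while the compound arrays overlapped the controls (0.10, 95% confidence interval -0.09 to 0.29). The LSK arrays read 6.22, 6.16 and 6.03 with Dox and 5.50 and 5.24 with the compounds, against 5.75, 5.91 and 5.91 in control. Idh1 was lower with the compounds in LSK cells (-0.49 ± 0.10, adjusted p = 9.05e-04) and higher with Dox (0.28 ± 0.089, adjusted p = 0.0385). The LSK Dox call was lost without LSK control replicate 1, 2 or 3 (adjusted p = 0.154, 0.0577 and 0.0578), without LSK Dox replicate 1 or 2 (adjusted p = 0.137 and 0.104), with the replicate number as a block (adjusted p = 0.0515), with median centring (0.0577), with no filter (0.0530) and with only the groups compared (0.0717).

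Idh2 stood at 6.91, 6.93 and 6.98 in AML Dox cells and at 8.67, 8.83 and 8.41 in AML compound cells, against 8.52, 8.58 and 8.52 in AML control cells. It was 3.04-fold lower with Dox (-1.60 ± 0.096, adjusted p = 1.92e-10), and the compound arrays overlapped the controls (0.09, 95% confidence interval -0.11 to 0.30). In LSK cells its levels were 8.17, 8.10 and 8.23 with Dox and 8.30 and 8.14 with the compounds, against 8.55, 8.60 and 8.65 in control. Both treated groups lay below the controls, with differences of -0.44 ± 0.096 (adjusted p = 0.00384) for Dox and -0.38 ± 0.11 (adjusted p = 0.0107) for the compounds. The compound call missed the threshold without LSK compound replicate 3 (-0.30, adjusted p = 0.126).

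**Figure D2:**
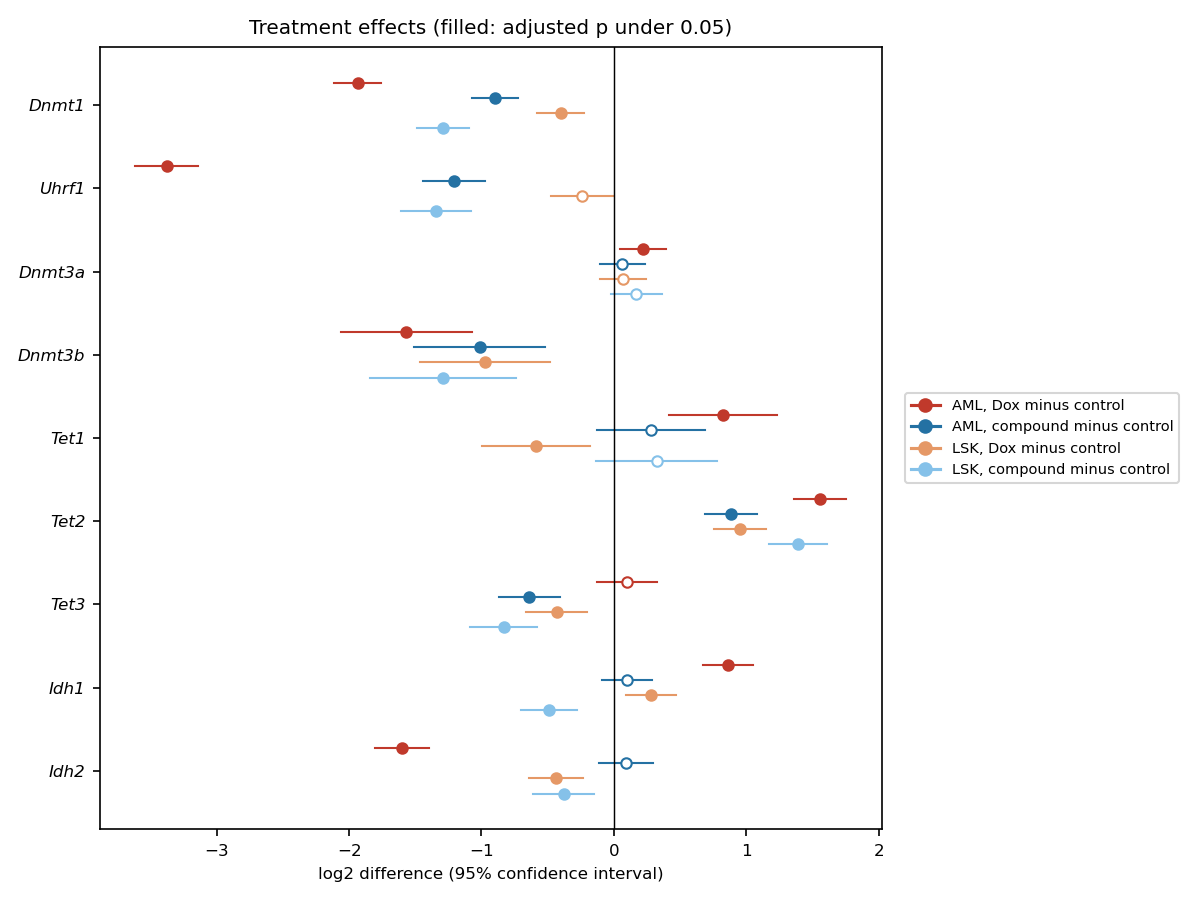
Log2 difference from the control of the same cell type (horizontal axis) for each of the 9 genes and 4 treatments, as points with 95% confidence intervals from limma; filled points have an adjusted p under 0.05. Uhrf1 in AML Dox cells lies farthest from 0, at -3.38, and Tet2 lies between 0.88 and 1.56 in all 4.

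The response to Dox differed between the cell types for 7 of the 9 genes, where 40.1% of all genes tested were called (18.6% higher and 21.5% lower). Taking the AML response minus the LSK response, Uhrf1 differed by -3.14 ± 0.16 (adjusted p = 9.47e-11), Dnmt1 by -1.53 ± 0.12 (adjusted p = 1.30e-08) and Idh2 by -1.17 ± 0.14 (adjusted p = 2.00e-06), each falling further in AML cells. The other 4 had the higher response in AML cells: Tet1 by 1.41 ± 0.27, Tet2 by 0.61 ± 0.13, Idh1 by 0.58 ± 0.13 and Tet3 by 0.53 ± 0.15 (adjusted p = 4.07e-04, 0.00110, 0.00114 and 0.00954). Tet1 was called in opposite directions in the 2 cell types, but its LSK Dox call was lost when any single LSK Dox or LSK control array was left out (adjusted p = 0.0556 to 0.127). Dnmt3b (-0.59, 95% confidence interval -1.29 to 0.10) and Dnmt3a (0.15, -0.09 to 0.39) missed the threshold. With only the groups compared in the fit, Dnmt3b passed it (-0.59, adjusted p = 0.0128). Its level on the AML Dox arrays was low, between percentiles 55.48 and 59.62 of all probe sets, and whether this limited its fall was not tested. Klf4 also had the higher Dox response in AML cells, by 1.49, and the part of the amount of factor induced was not tested.

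The response to the compounds differed between the cell types for 4 of the 9 genes, where 17.1% of all genes tested were called (8.69% higher and 8.37% lower). Idh1 (0.59 ± 0.13, adjusted p = 0.00478), Idh2 (0.47 ± 0.14, adjusted p = 0.0310) and Dnmt1 (0.39 ± 0.12, adjusted p = 0.0400) had the higher response in AML cells, and Tet2 the lower one (-0.51 ± 0.14, adjusted p = 0.0166). Each of these rests on the 2 LSK compound arrays. With LSK compound replicate 1 included none of the 4 was called, and Tet2 turned to 0.81 (adjusted p = 0.654). Leaving out LSK compound replicate 3 ended the call of Tet2 (-0.42, adjusted p = 0.104), Idh2 (0.40, adjusted p = 0.150) and Dnmt1 (0.44, adjusted p = 0.0573). Dnmt1 also missed the threshold without AML control replicate 1, 2 or 3, AML compound replicate 2, LSK control replicate 2 or 3, or LSK compound replicate 2 (adjusted p = 0.0568 to 0.145). Idh2 did so without AML control replicate 1 or 3, AML compound replicate 1 or 2, or LSK control replicate 2 or 3 (adjusted p = 0.0556 to 0.0679). With only the groups compared, Dnmt1 and Idh2 missed it (adjusted p = 0.0664 and 0.0712), and Dnmt1 also did with array quality weights, with no filter and with the replicate block (adjusted p = 0.0615, 0.0562 and 0.0578). Uhrf1, Dnmt3a, Dnmt3b, Tet1 and Tet3 missed the threshold, with differences between -0.11 and 0.27.

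**Figure D3:**
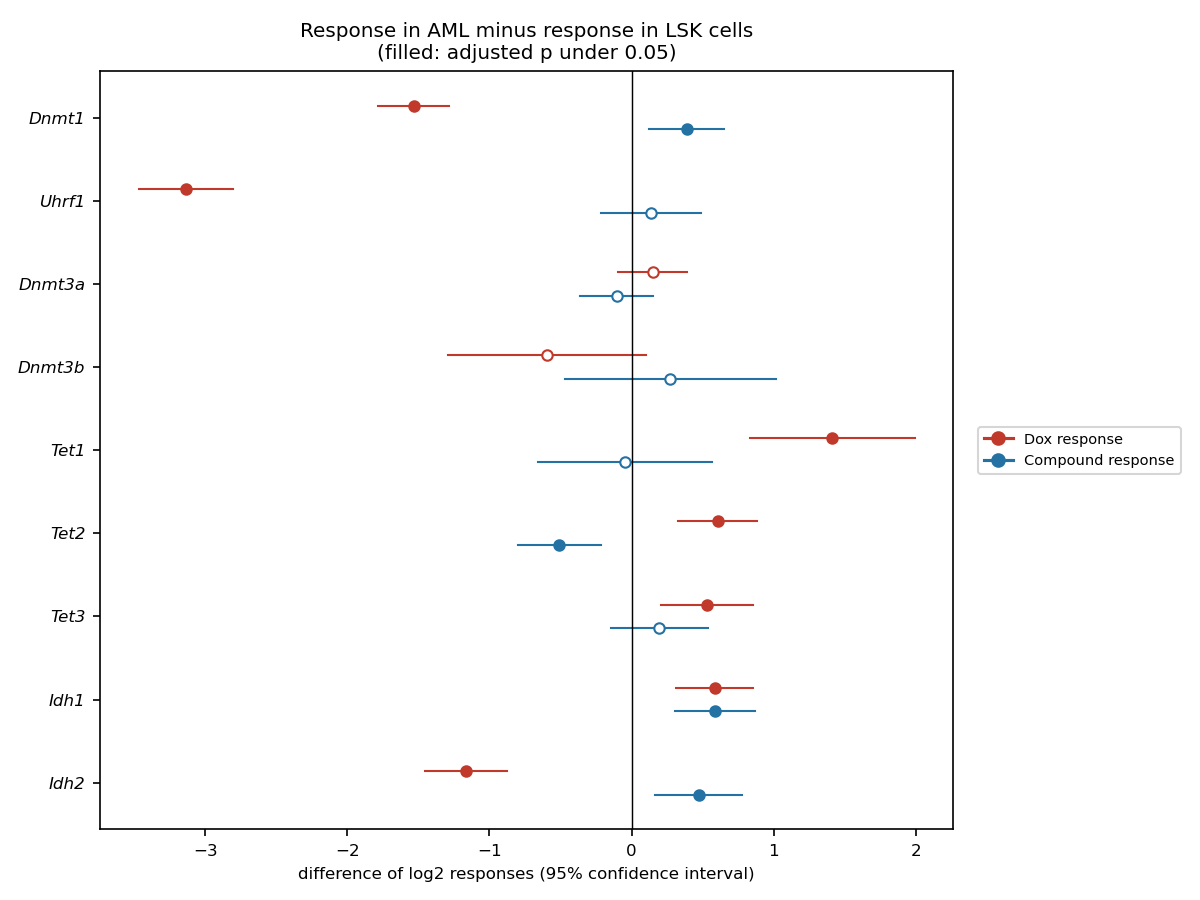
Response in AML cells minus response in LSK cells (horizontal axis, difference of log2 differences, with 95% confidence intervals) for Dox and for the compounds; filled points have an adjusted p under 0.05. The Dox values of Uhrf1, Dnmt1 and Idh2 lie at -3.14, -1.53 and -1.17, and the compound values lie between -0.51 and 0.59.

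Dox and the compounds were also set against each other within a cell type. In AML cells, 7 of the 9 genes differed between Dox and compound, where 47.7% of all genes were called. Uhrf1 was 4.51-fold lower (-2.17 ± 0.11), Idh2 3.24-fold lower (-1.70 ± 0.096) and Dnmt1 2.05-fold lower (-1.04 ± 0.083) with Dox than with the compounds, with adjusted p of 2.83e-11, 1.13e-10 and 9.48e-09. Idh1, Tet3 and Tet2 were higher with Dox by 0.76, 0.74 and 0.68 (adjusted p = 1.19e-06, 1.64e-05 and 7.78e-06). Tet1 was higher with Dox by 0.54 ± 0.19 (adjusted p = 0.0275), a call lost without AML Dox replicate 1 or 2 or AML compound replicate 2 or 3 (adjusted p = 0.0776, 0.0587, 0.127 and 0.0593), with quantile normalization (0.43, adjusted p = 0.0801) and with array quality weights (0.41, adjusted p = 0.0926). Dnmt3b missed the threshold (-0.55, adjusted p = 0.0610). It lay at -0.17 without AML compound replicate 3 (adjusted p = 0.410) and at -0.86 without AML compound replicate 2 (adjusted p = 0.00235), so its size rests on those arrays. It also passed with median centring, quantile normalization, the 60th percentile filter and eBayes trend and robust (adjusted p = 0.0283, 0.0256, 0.0494 and 0.0460). Dnmt3a passed with array quality weights only (0.21, adjusted p = 0.0357).

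In LSK cells, 6 of the 9 genes differed between Dox and compound, where 32.3% of all genes were called. The direction was turned for Dnmt1 and Uhrf1, which were higher with Dox than with the compounds, by 0.89 ± 0.093 and 1.10 ± 0.12 (adjusted p = 7.23e-07 and 1.73e-06). Idh1 and Tet3 were also higher with Dox, by 0.77 ± 0.10 and 0.40 ± 0.12 (adjusted p = 9.55e-06 and 0.0165), and Tet1 and Tet2 were lower, with differences of -0.91 ± 0.22 and -0.44 ± 0.10 (adjusted p = 0.00303 and 0.00299). Without LSK compound replicate 3, Tet1 (-0.58), Tet2 and Tet3 missed the threshold (adjusted p = 0.104, 0.0609 and 0.150), and Tet3 did so without LSK Dox replicate 3 (adjusted p = 0.0757).

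Without treatment, AML and LSK cells differed in 4 of the 9 genes, where 29.6% of all genes were called (15.4% higher and 14.2% lower). Idh1 was 2.85-fold higher in AML control than in LSK control cells (1.51 ± 0.089, adjusted p = 7.38e-10), and Uhrf1 was higher by 0.39 ± 0.11 (adjusted p = 0.0117). Dnmt3b was 3.25-fold lower (-1.70 ± 0.23, adjusted p = 2.27e-05) and Tet1 2.87-fold lower (-1.52 ± 0.19, adjusted p = 9.45e-06) in AML control cells. Dnmt1, Dnmt3a, Tet2 and Idh2 missed the threshold, with differences between -0.06 and 0.18. Uhrf1 missed it without AML control replicate 3 (0.35, adjusted p = 0.0532), and Tet3 (0.29, adjusted p = 0.0548) passed it without AML control replicate 3 or LSK control replicate 2 (adjusted p = 0.0423 and 0.0272), and under 5 other alternatives (adjusted p = 0.0248 to 0.0489). Xist, at 2.38 to 2.63 in AML control and 9.28 to 9.56 in LSK control cells, differed along with disease and cell source, and these cannot be told apart here.

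Over the 17 arrays the 9 genes fell into related and opposed patterns. The correlations that follow describe arrays that share groups and carry no p. Dnmt1 and Uhrf1 ran together (r = 0.968), as did Idh2 and Uhrf1 (0.878), and Tet2 ran against Dnmt1 (-0.937) and Uhrf1 (-0.874). Dnmt3b ran against Idh1 (-0.848). Tet1 correlated with the other 8 between -0.70 (Idh1) and 0.52 (Dnmt3b). Among all genes tested, those most like Dnmt1 were Nudt21, Naa50 and Prpf8 (r = 0.983, 0.981 and 0.978), and after Mcm5 those most like Uhrf1 were Ybx1 and Wdr5 (0.988 and 0.987). Tuba1a, Reep5 and Tiparp were most like Tet2 (0.978, 0.972 and 0.958), and Pbx3, Hoxa9 and Baz2b most like Idh1 (0.985, 0.985 and 0.984). For Idh2 they were Rpp40, Slc25a37 and Utp14a (0.986, 0.985 and 0.984), for Dnmt3b Gtf2h3, Vamp5 and Znrf1 (0.972, 0.971 and 0.969), and for Tet3 Sgsh, Cog4 and Sdha (0.948, 0.938 and 0.923). The nearest patterns to Tet1 and Dnmt3a were weaker, led by Tspan3 (0.931) and Golga7 (0.910).

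The other genes of the pathway were read as lists. Of all genes tested, 23.0% were called higher and 25.6% lower in AML Dox, 12.8% and 19.2% in AML compound, 9.21% and 9.93% in LSK Dox, and 14.2% and 20.0% in LSK compound cells, so calls lower outnumbered calls higher over all genes too. The methyl donor cycle makes S-adenosylmethionine from one-carbon units. Its list also holds Tyms, Slc19a1 and Mtap, which are not steps of that synthesis. In AML Dox cells 1 of the 16 tested genes of the list was called higher and 11 lower (median -1.33, all genes -0.01), led by the mitochondrial serine and folate enzymes Shmt2 (-2.88 ± 0.086) and Mthfd1l (-3.0 ± 0.11) and the cytosolic Shmt1 (-2.92 ± 0.15). The methionine synthase Mtr did not fall there, with a mean of 7.07 in AML Dox and in AML control cells, and neither did Mthfd1, at 7.56 against 7.46. In AML compound cells 0 were higher and 9 lower (median -0.39), with Shmt2 at -1.05 and Mthfd2 at -0.83, and in LSK compound cells 1 was higher and 10 lower (median -0.60), with the methionine synthase Mtr at -0.79. In LSK Dox cells 0 were higher and 4 lower (median -0.11), with Shmt2 at -0.41. Between the controls, Ahcy, which clears the inhibitory product S-adenosylhomocysteine, stood at a difference of 1.71 and Mtap, the salvage enzyme of methylthioadenosine, at -1.0 in AML against LSK cells, among 5 called higher and 1 lower. Over all genes tested, 15.4% were called higher and 14.2% lower between the controls.

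A list around 2-oxoglutarate, the TET cosubstrate, holds enzymes that make or use it and also other steps of the citric acid cycle that do not (Cs, Fh1 and the succinate dehydrogenase subunits Sdha, Sdhb, Sdhc and Sdhd). In AML Dox cells 14 of its 20 tested genes were lower and 0 higher (median -0.57). Idh3a, the catalytic subunit of the NAD-dependent isocitrate dehydrogenase, fell by 2.30, Got1, a cytosolic transaminase, fell by 1.68 and its mitochondrial relative Got2 fell by 1.15. In the AML compound comparison 2 were higher and 8 lower, with Idh3g at -0.40, in LSK Dox 1 and 4, with the glutamate dehydrogenase Glud1 at 0.58, and in LSK compound 4 and 7, with Got1 at 1.01 and the fumarase Fh1 at -0.67. Got1 was thus called in opposite directions in AML Dox and LSK compound cells. Whether metabolite levels changed was not measured.

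Cofactors of methylation moved both ways. In AML Dox cells 6 of 19 were higher and 8 lower (median -0.11). Cdca7, which brings the remodeller HELLS to chromatin, was at -4.22 ± 0.094, while Uhrf2, the paralog of Uhrf1, was higher by 2.53 ± 0.083 and Rb1, the retinoblastoma protein that restrains E2F, by 2.49 ± 0.080 (adjusted p = 1.38e-15, 9.50e-14 and 7.41e-14). Uhrf2 thus changed in the opposite direction to Uhrf1 in AML Dox cells. In AML compound cells 1 was higher (Rb1, 0.70) and 11 lower (median -0.38), with Trim28, the corepressor of zinc finger proteins, at -0.95 and Cdca7 at -0.88. LSK Dox had 2 higher and 5 lower, with Rb1 at 0.95 and Cdca7 at -0.78, and LSK compound 0 higher and 9 lower, with Cdca7 at -1.68, Hells at -1.19 and Trim28 at -0.73. Of 7 tested genes for readers of methylated CpG and their relatives, Mbd3, a subunit of the NuRD complex, was lower in all 4 comparisons, at -1.13, -0.66, -0.44 and -0.57 in AML Dox, AML compound, LSK Dox and LSK compound cells, within totals of 2 higher and 3 lower, 1 and 2, 0 and 2, and 0 and 3.

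Among 10 partners and regulators of TET enzymes, 1 was higher and 4 lower in AML Dox cells, a share near the 48.6% called of all genes. Ogt, the O-GlcNAc transferase that binds TET2 and TET3, was higher by 1.92 ± 0.079 and the arginine methyltransferase Prmt5 was at -2.35 ± 0.099. The OGT substrate Hcfc1 was lower in AML Dox (-1.01), AML compound (-1.35) and LSK compound (-1.26) cells, within totals of 0 higher and 3 lower in AML compound, near the 32.0% of all genes, and 1 and 4 in LSK compound. Cxxc5, a CpG-binding protein of the CXXC family, was at -2.12 in LSK compound and -0.69 in LSK Dox cells, where 1 gene of the list was higher and 2 lower, and its difference was -3.20 in AML control against LSK control cells. Base excision and demethylation genes numbered 15 tested. In AML Dox cells 3 were higher and 8 lower (median -0.69), with Gadd45b at -2.73, Parp1 at -1.33 and the uracil glycosylase Ung at -0.85. Gadd45b, a stress-induced gene linked to active demethylation, was lower in AML compound cells (-0.89) and higher in LSK compound cells (2.39 ± 0.11, adjusted p = 1.47e-11), and the cytidine deaminase Apobec1 was higher in AML compound cells by 1.45. The totals were 4 higher and 6 lower in AML compound, 2 and 5 in LSK Dox and 5 and 6 in LSK compound cells.

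**Figure D4:**
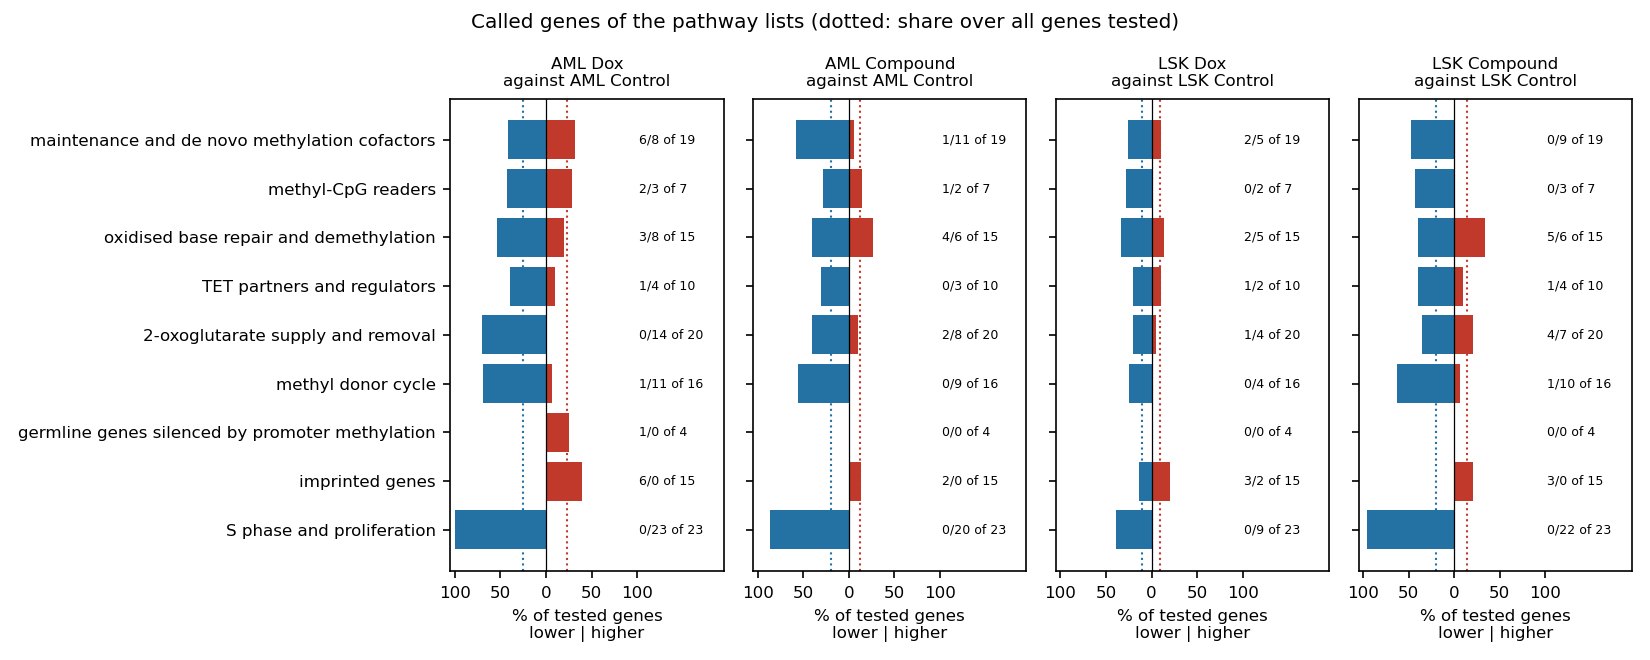
Share of the tested genes of each pathway list that were called lower (left, blue) or higher (right, red) in the 4 treatment comparisons, with the number higher, then lower, of those tested beside each bar and dotted lines at the share over all genes tested. All 23 S phase genes were called lower in AML Dox cells, and 0 genes of the list around 2-oxoglutarate, which includes other citric acid cycle enzymes, were called higher there.

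Genes known for silencing by promoter methylation and imprinted genes were read next. Of 18 measured germline genes of this kind, 4 were bright enough to be tested, and Tex15, a gene of the male germline, was the only 1 called, higher by 2.19 ± 0.16 (adjusted p = 1.83e-09) in AML Dox cells, where its 3 other tested members missed the threshold. No germline gene was called in the other 3 treatment comparisons. Of 15 tested imprinted genes, whose parental alleles are marked by methylation, 6 were higher and 0 lower in AML Dox cells, 2 and 0 in AML compound, 3 and 2 in LSK Dox and 3 and 0 in LSK compound cells, where 48.6%, 32.0%, 19.1% and 34.2% of all genes were called. The share called in either direction was thus below that of all genes in AML Dox, AML compound and LSK compound cells and above it in LSK Dox cells. By direction, 23.0%, 12.8%, 9.21% and 14.2% of all genes were called higher, and 25.6%, 19.2%, 9.93% and 20.0% lower. The share of imprinted genes called higher was above that of all genes in AML Dox and LSK Dox cells and near it in AML compound and LSK compound cells. Imprinted genes were called lower in LSK Dox cells alone. Igf2r, the scavenger receptor of IGF2, was higher in AML Dox (1.44), AML compound (0.89) and LSK compound (1.22) cells, Mest in LSK Dox (2.17) and AML Dox (0.92) cells, and Grb10 in LSK Dox cells (1.35). The arrays do not separate alleles.

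Marker levels of other blood cells moved with the treatments, and their part in the results above was not tested. The mean level of 10 monocyte and macrophage genes lay at 7.70 to 7.93 on the AML compound arrays and 5.28 to 5.37 on the AML Dox arrays, against 5.57 to 5.58 on the AML control arrays, and at 6.91 to 6.98 in LSK compound and 5.87 to 5.99 in LSK Dox cells, against 6.05 to 6.14 in LSK control cells. All 10 were called higher in AML compound cells (median difference 2.59). In LSK compound cells 5 were higher and 3 lower (median 0.16), in AML Dox cells 4 and 5 (-0.45) and in LSK Dox cells 3 and 3 (0.05), so these means join genes that moved in opposite directions. Over all genes tested, 12.8% were called higher and 19.2% lower in AML compound and 14.2% and 20.0% in LSK compound cells. The shares were 23.0% and 25.6% in AML Dox and 9.21% and 9.93% in LSK Dox cells. The 10 neutrophil genes lay at 4.18 to 4.32 in LSK compound and 5.97 to 6.02 in LSK Dox cells, against 7.02 to 7.28 in LSK control cells, and at 4.86 to 4.95 in AML compound and 4.39 to 4.49 in AML Dox cells, against 5.55 to 5.58 in AML control cells. Of the 9 that were tested, 9 were lower in LSK compound (median -2.61) and 8 in LSK Dox cells (-1.29), with 0 higher. In AML Dox cells 1 was higher and 4 lower (median -0.0036), led by Ctsg at -6.10 and Mpo at -3.60, and in AML compound cells 0 were higher and 4 lower (median -0.18). Over all genes, 48.6% were called in AML Dox cells, a share near that of the neutrophil genes, and 32.0% in AML compound cells. Of 7 B cell genes 3 to 5 and of 6 T and NK cell genes 1 to 3 lay above the 40th percentile of the array in a group, with Ms4a1, Cd3g and Ncr1 below it in every group.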

How the data were processed

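RNA from 18 samples was measured on 1-colour whole-transcript arrays, and sample titles gave the groups. The authors deposited log2 values per probe set, summarised with RMA per the submitters' processing notes. The sources used here name no RMA version or genome build. The values were used as deposited.

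Of 41345 probe sets, 23521 mapped to 1 gene, 1814 to several and 16010 were absent from the probe table. Per gene, the probe set with the highest mean was kept (22180 genes). Genes above the 40th percentile of their array on at least 3 arrays were tested (16337). The 17 arrays were fitted with limma 3.58.1 in R 4.3.3 (1 mean per group, eBayes, 11 residual and 5.26 prior degrees of freedom), with Benjamini-Hochberg adjustment and a threshold of 0.05. The fit was first tested on simulated data with known changes. The number of arrays limits the precision.

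The genes, the 18 gene lists (216 of 249 entries measured) and the array left out were chosen with earlier results of these data known. Named list genes are up to 3 with the smallest p per list and comparison, and like genes are the 3 with the highest correlation. Ly6a (Sca1) had no probe set of its own. Symbols are those of the probe table, and 23328 probe sets had an Entrez ID in the mouse RefSeq table. The alternatives were all 18 arrays, a block for the replicate number, leaving out each array, only the groups compared, median centring, quantile normalization, no filter, a 60th percentile filter, a floor at the 40th percentile, the mean of all probe sets, array quality weights, and eBayes with trend and robust. Same-numbered arrays did not deviate together: over 40 pairs of such arrays from different groups the correlation of their deviations ran from -0.114 to 0.104 (median -0.0013), so the numbers were not taken to pair samples.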

Additional observations from a re-analysis of the deposited data

Results flagged for a closer look

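For 7 genes the test of the difference itself separated the Dox response of AML cells from that of LSK cells. The AML response minus the LSK response was -3.1356 for Uhrf1, -1.5326 for Dnmt1 and -1.1675 for Idh2, and 1.4142 for Tet1, 0.6079 for Tet2, 0.5840 for Idh1 and 0.5321 for Tet3 (log2). For the compounds it was 0.5866 for Idh1, 0.4739 for Idh2, 0.3893 for Dnmt1 and -0.5078 for Tet2, and these 4 rest on the 2 LSK compound arrays, whose Xist and Y-linked genes also differed from the other LSK arrays. Xist also separated the AML arrays from the LSK arrays. With at most 3 arrays a group, no gene was tested for a single outlying array.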

How the results depend on the processing

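Over 81 differences (9 genes in 9 comparisons) and 1458 alternatives, 1345 kept direction and side of the threshold, 84 kept direction but lost the call, 14 gained one and 15 turned sign. With all 18 arrays, which put LSK compound replicate 1 back, the members called were 5 in AML Dox, 2 in AML compound, 0 in LSK Dox, 2 for the Dox response, 0 for the compound response and 3 for AML Dox against compound. The genes called were then 4242 in AML Dox, 1064 in AML compound, 602 in LSK Dox, 2924 in LSK compound, 2230 for the Dox response, 519 for the compound response, 1432 between controls, 3890 for AML Dox against compound and 2547 for LSK Dox against compound; the fit then had 1 far array in its spread. In that fit Tet1 turned to -0.0183 in LSK compound and 0.2990 for the compound response, Tet2 to 0.8075 for the compound response and 0.8752 for LSK Dox against compound, and Idh2 to 0.5832 there. With only the groups compared, 2 members were called for the compound response. Array quality weights turned Tet1 to 0.0370 there. Leaving out 1 array, members called ranged from 1 to 4 for the compound response, 4 to 6 in LSK Dox and 3 to 6 for LSK Dox against compound, and the signs of uncalled values turned: the compound response of Tet1 ranged from -0.38 to 0.2944 and that of Dnmt3b from -0.1085 to 0.5791, Idh2 in AML compound from -0.0015 to 0.2067, Idh2 in LSK Dox against compound from -0.1338 to 0.0210, and Tet1 in LSK compound from -0.0137 to 0.6606. The cause was not tested. The replicate block ended 2 calls, Idh1 in LSK Dox (adjusted p = 0.0515) and the compound response of Dnmt1 (0.40, adjusted p = 0.0578), and no other call of the members. Dnmt3b for AML Dox against compound was called under 5 alternatives and Tet3 between controls under 7. The mean of all probe sets changes nothing for the members, which have 1 each.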
